A study of Mus musculus with 4 samples.

Results

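The genes described here are 10 genes that mark intestinal stem cells or are transcribed in response to Wnt signalling: Lgr5, Ascl2, Smoc2, Olfm4, Ephb2, Axin2, Rnf43, Sox9, Myc and Cd44. The RNA came from lamina propria lymphocytes, that is immune cells of the tissue layer below the gut lining. Probes were assigned by the RefSeq accession printed for each probe, which gave 13 probes for 9 of the 10 genes, out of 27228 named probes of 20655 genes and 39429 probes in all. No probe was named Olfm4, so that gene has no value here. Axin2 had 2 probes, Cd44 had 4 and the other 7 genes had 1 each.

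There were 4 arrays, 1 for each of 4 groups of C57BL6 mice, and all groups had been exposed to dextran sulfate sodium (DSS), a chemical that injures the colon lining, with cells taken on day 10. Wild type mice received DSS alone or together with LIF, leukemia inhibitory factor, which signals through the receptor chain gp130 to Stat3. Stat4-/- mice, which lack a transcription factor of the interleukin-12 response, likewise received DSS alone or together with LIF. The arrays are called DSS and LIF arrays below, where LIF always means DSS as well. Each group had 5 mice, and the labels leave unsaid whether their RNA was pooled. With a single array in each group nothing could be tested, so differences compare arrays, have no replicate check and are described by size, and the number of arrays limits the precision.

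In the intestinal crypt, Wnt ligands bind Frizzled and LRP receptors on epithelial cells, beta-catenin then enters the nucleus, and with TCF factors it switches on target genes. R-spondins strengthen the signal by binding Lgr5 and its relatives and removing the ubiquitin ligases Rnf43 and Znrf3 from the surface. Crypt base stem cells depend on this pathway and are known for Lgr5, Ascl2, Smoc2 and Olfm4. Axin2 and Rnf43 are targets that feed back to dampen the signal. Sox9, Ephb2, Cd44 and Myc are targets with a wider expression, and Cd44 and Myc are well known in activated lymphocytes and other leukocytes too.

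The wild type LIF array stood apart, with a Pearson correlation of 0.800 to 0.818 with the other arrays over 12674 probes, against 0.951 to 0.980 among those 3, and the probes are not independent replicates. It was also the dimmest, with a 75th percentile of the processed signal of 23.8 against 43.3 to 122.9, and with 37.6% of probes well above background against 44.9% to 61.7%. The Stat4 probe did not separate the genotypes, since its log2 level was −0.49 and 0.21 on the wild type arrays and 0.31 and −0.48 on the arrays labelled Stat4-/-, with DSS and with DSS and LIF. Whether that probe lies in the deleted part is unknown here. The genotype is therefore taken from the label alone, and Stat4-/- below means the arrays so labelled. Only the arrays of the 2 genotypes under DSS alone were read in the same scan, so LIF and scan cannot be told apart, nor can genotype and scan where the LIF arrays are compared.

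Levels are processed signals on the log2 scale, less their array's 75th percentile, so 0 is the brightness at the 75th percentile itself. The error after ± is the one that the scanner software gives for a single spot, turned to the log2 scale, and it covers no difference between mice. Sox9 gives a check on it, because its probe was spotted 10 times: the SD of log2 signals over its 9 or 10 usable spots was 0.02 to 0.05, below the software's error of 0.14. Another background correction, normexp with an added offset of 50, gave some genes a different sign or side of 2-fold, and its values are given as log2 differences. A gap between arrays is said here to exceed its error when it is over 2 combined errors.

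All 9 genes with a probe were well above background on at least 1 array, and 7 of them were on all 4, as were 38.9% of all 20655 named genes. The exceptions were Lgr5 on the array labelled Stat4-/- DSS and Myc on the wild type LIF array. The lymphocyte preparations also held epithelial transcripts. Of 16 epithelial markers with a probe, 16 were well above background on each of the other arrays and 15 on the wild type LIF array, where Car1 was not. Their summed signal, in units of the 75th percentile, was 206 on the wild type DSS array, 397.0 on the wild type LIF array, and 230.2 and 213 on the arrays labelled Stat4-/- DSS and Stat4-/- LIF. This sum is carried largely by Lgals4, the brightest of the 16, with log2 levels of 6.98 and 7.87 on the wild type DSS and LIF arrays. The median log2 level of the 16 was 2.24, 2.82, 1.47 and 1.88 on the 4 arrays in the same order. T cell markers were present on 9 or 10 of 10 probes. Of 6 general leukocyte markers, 4 were well above background on the wild type LIF array, where Ptprc (CD45) and Laptm5 were not, and 6 on every other array. In such mixed RNA, fewer cells of a type and less RNA per cell cannot be told apart.

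The promoter table of RefSeq (build GRCm38.p6) has entries for 6 of the 10 genes. The 250 bases before the start of Axin2 and Ascl2 are shown because these were at least 2-fold higher with LIF in wild type mice, and Lgr5, the third such gene, has no entry. Capitals mark GGGCGG, the GC box bound by Sp1-type factors, searched on both strands.

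Axin2, chr11:108920099-108920348, plus strand: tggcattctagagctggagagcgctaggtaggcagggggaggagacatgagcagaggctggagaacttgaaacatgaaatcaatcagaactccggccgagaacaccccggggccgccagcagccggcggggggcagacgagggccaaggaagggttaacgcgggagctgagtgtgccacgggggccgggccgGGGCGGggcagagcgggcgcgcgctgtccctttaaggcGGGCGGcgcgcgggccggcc
Ascl2, chr7:142969265-142969514, minus strand: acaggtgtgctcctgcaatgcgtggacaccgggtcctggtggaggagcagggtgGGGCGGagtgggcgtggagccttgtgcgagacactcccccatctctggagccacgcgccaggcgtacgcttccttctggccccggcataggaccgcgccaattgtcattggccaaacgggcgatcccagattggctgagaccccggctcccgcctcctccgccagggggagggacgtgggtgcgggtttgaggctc

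Axin2 holds 2 GC boxes, which begin 58 and 20 bases before the start, and Ascl2 holds 1, which begins 196 bases before it. The windows of Cd44, Ephb2, Rnf43 and Olfm4 hold 0. This hexamer occurs in 32.7% of 32851 promoter windows of that length. G and C make up 69.2% of the Axin2 window and 67.6% of the Ascl2 window, against a median of 52.4%. In the other windows of these genes the share is 44.4% to 68.4%, highest in that of Ephb2, which was not higher with LIF in wild type. The TCF motif, CTTTG followed by 2 letters that are each A or T, on either strand and without overlap with the GC boxes, was found in 0 of the 7 windows of the 6 genes and in 14.8% of all windows. These letters are simply not in this stretch, which says nothing about TCF elsewhere in the genes.

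Lgr5, the R-spondin receptor that defines crypt base stem cells, had the widest range of the 9 genes. Its level was −0.89 ± 0.15 on the wild type DSS array, 2.07 ± 0.15 on the wild type LIF array, −2.92 ± 0.55 on the array labelled Stat4-/- DSS and −0.51 ± 0.18 on the array labelled Stat4-/- LIF. The wild type LIF array was highest by far, the array labelled Stat4-/- DSS was lowest and not well above background, and the 2 in between differed by 0.38, within 2 errors. In wild type mice Lgr5 was thus 7.79-fold higher with LIF, a log2 difference of 2.96 ± 0.21 where 80% of all measured genes lay between −1.34 and 1.96. On the arrays labelled Stat4-/- it was at least 3.08-fold higher with LIF. This bound sets the bright value against the dimmest level well above background on the other array. Between genotypes it was lower in Stat4-/-, at least 2.36-fold under DSS and 5.98-fold under DSS and LIF. The last of these, −2.58 on the log2 scale, came to −0.98 with normexp and so fell short of 2-fold.

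Ascl2, a transcription factor that keeps crypt cells in the stem state, showed a single high array. Its level was 1.49 ± 0.14 on the wild type DSS array, 2.78 ± 0.15 on the wild type LIF array, 1.33 ± 0.15 on the array labelled Stat4-/- DSS and 1.53 ± 0.15 on the array labelled Stat4-/- LIF. The other 3 arrays lay within 0.21 of each other, inside the error. With LIF Ascl2 was 2.46-fold higher in wild type and 1.15-fold higher in Stat4-/- after scaling, with 0.20 and −0.21 on the log2 scale under normexp. The second difference (0.21 ± 0.21) did not exceed its error. Its processed signal before scaling fell with LIF from 344.0 to 163.8 in wild type and rose from 113.6 to 125.4 in Stat4-/-.

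Smoc2, a secreted matrix protein of crypt base cells, ranged less. Its level was 1.72 ± 0.14 on the wild type DSS array, 2.67 ± 0.15 on the wild type LIF array, 2.19 ± 0.15 on the array labelled Stat4-/- DSS and 2.55 ± 0.14 on the array labelled Stat4-/- LIF. The wild type DSS array was lowest, 0.47 below the next array, and the 3 others did not differ from their neighbours beyond the error. LIF against no LIF came to 0.95 ± 0.20 in wild type, just under 2-fold, and to 0.35 ± 0.21 in Stat4-/-, and with normexp both turned, to −0.05 and −0.33.

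Ephb2, a receptor tyrosine kinase that positions cells along the crypt, had levels of 0.69 ± 0.15 on the wild type DSS array, 0.24 ± 0.17 on the wild type LIF array, 0.42 ± 0.15 on the array labelled Stat4-/- DSS and 1.01 ± 0.15 on the array labelled Stat4-/- LIF. No neighbours in this order differed beyond the error, and the ends were 0.77 ± 0.23 apart. The LIF difference was −0.45 ± 0.23 in wild type and 0.59 ± 0.21 in Stat4-/-.

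**Figure D1:**
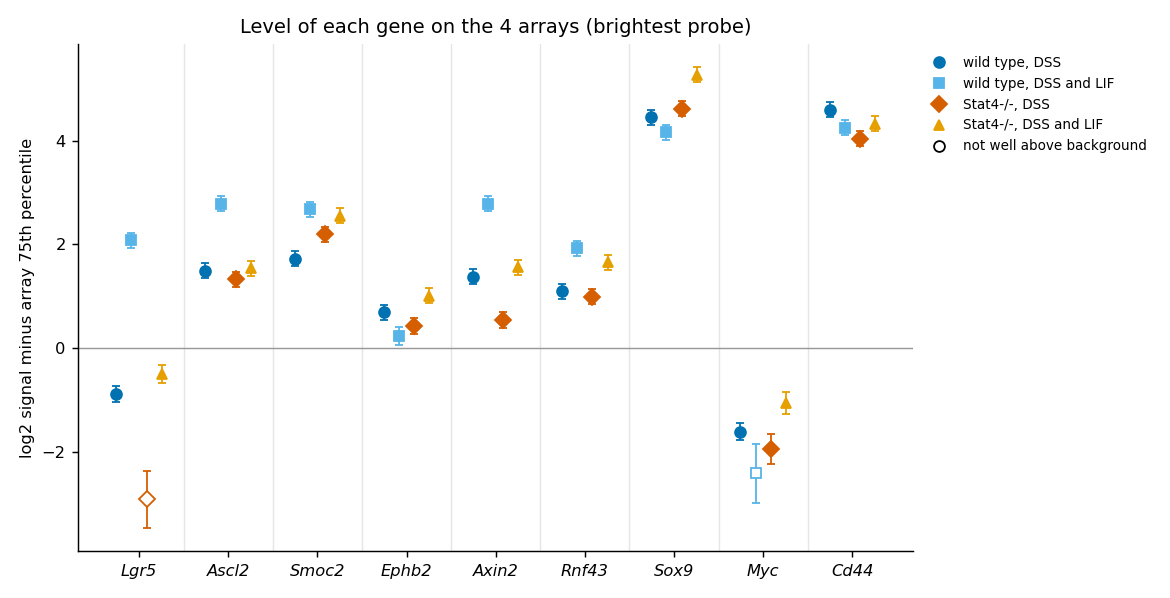
Level of each gene by its brightest probe on the 4 arrays. The vertical axis is the log2 processed signal minus the array's 75th percentile, bars are the scanner software's error of 1 spot, and open symbols are not well above background. Lgr5 spans −2.92 to 2.07, while Cd44 spans 4.04 to 4.59, and levels of different genes come from different probes and are not comparable.

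Axin2, the scaffold of the beta-catenin destruction complex and the most used reporter of Wnt signalling, was higher with LIF in both genotypes after scaling. Its brighter probe read 1.37 ± 0.14 on the wild type DSS array, 2.78 ± 0.15 on the wild type LIF array, 0.55 ± 0.15 on the array labelled Stat4-/- DSS and 1.56 ± 0.15 on the array labelled Stat4-/- LIF. The order of the arrays is that of Lgr5, with the middle pair 0.19 apart and inside the error. After scaling, the gene was 2.66-fold higher with LIF in wild type and 2.02-fold higher in Stat4-/-. Its processed signal fell from 317.2 to 163.0 in wild type and rose from 66.04 to 127.3 in Stat4-/-. The signal level used for scaling was 122.9 on the wild type DSS array and 23.78 on the wild type LIF array. The rise in wild type thus rests on this scaling. The log2 differences of 1.41 ± 0.20 and 1.01 ± 0.21 were both positive under every alternative tried. Several alternatives leave such values unchanged by construction. With normexp the differences were lowest, 0.42 and 0.28, and neither reached 2-fold. Between genotypes it was lower in Stat4-/-, by 1.77-fold under DSS (−0.82 ± 0.21) and by 2.33-fold under DSS and LIF (−1.22, or −0.89 with normexp). The second Axin2 probe was not well above background on any of the 4 arrays and gives no check.

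Rnf43, the ubiquitin ligase that removes Frizzled receptors, had levels of 1.09 ± 0.14 on the wild type DSS array, 1.92 ± 0.15 on the wild type LIF array, 0.99 ± 0.15 on the array labelled Stat4-/- DSS and 1.65 ± 0.15 on the array labelled Stat4-/- LIF. Both LIF arrays lay above both DSS arrays, with a gap of 0.56 ± 0.21 between the nearest of them. The LIF difference was 0.82 ± 0.21 in wild type and 0.66 ± 0.21 in Stat4-/-, under 2-fold in each, and that in wild type turned to −0.05 with normexp. The genotypes differed by −0.11 under DSS and −0.27 under DSS and LIF, within the error.

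Sox9, a transcription factor of crypt progenitors and Paneth cells, was read from the most spots. Its level was 4.45 on the wild type DSS array, 4.16 on the wild type LIF array, 4.62 on the array labelled Stat4-/- DSS and 5.28 on the array labelled Stat4-/- LIF, each with an SD over spots of 0.05 or less. The array labelled Stat4-/- LIF was highest, 0.66 above the next array, and the lower 3 did not differ from their neighbours beyond the software's error. With LIF Sox9 came to −0.28 ± 0.20 in wild type and 0.66 ± 0.20 in Stat4-/-, and with normexp these became −1.39, past 2-fold lower, and −0.27, with the sign turned. Under DSS and LIF it was 2.16-fold higher in Stat4-/-, or 0.72 on the log2 scale with normexp.

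Myc, a transcription factor of cell growth, was dim throughout. Its level was −1.62 ± 0.16 on the wild type DSS array, −2.42 ± 0.57 on the wild type LIF array, −1.95 ± 0.30 on the array labelled Stat4-/- DSS and −1.06 ± 0.21 on the array labelled Stat4-/- LIF. On the wild type LIF array it was not well above background, and no fold can be given for LIF in wild type because the dimmest such level there (−1.49) lies above its level on the wild type DSS array. In Stat4-/- it was 1.85-fold higher with LIF (0.89 ± 0.36).

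Cd44, a hyaluronan receptor that is a Wnt target in crypts and an activation marker of T cells, had 4 probes. Its brightest probe read 4.59 ± 0.14 on the wild type DSS array, 4.25 ± 0.14 on the wild type LIF array, 4.04 ± 0.14 on the array labelled Stat4-/- DSS and 4.32 ± 0.14 on the array labelled Stat4-/- LIF, and no neighbours in that order differed beyond the error. The next probe read 1.93, 0.16, 1.48 and 1.82 on the same arrays. The 2 probes differed little where the wild type LIF array was not involved: LIF in Stat4-/- came to 0.28 (−0.67 with normexp) and 0.34, and Stat4-/- against wild type under DSS to −0.55 and −0.45. They differed more where it was involved: LIF in wild type came to −0.34 ± 0.20 by the first and −1.77 ± 0.22 by the second, and Stat4-/- against wild type under DSS and LIF to 0.07 and 1.66. With normexp the brightest probe gave −1.47 for LIF in wild type and −1.11 for the genotypes under DSS, both past 2-fold lower, and −0.30 for the genotypes under DSS and LIF, with the sign turned. The third probe was below the background mark on the wild type LIF array alone, and the dimmest probe there and on the array labelled Stat4-/- DSS. No difference of Cd44 with that array is therefore settled by its probes.

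**Figure D2:**
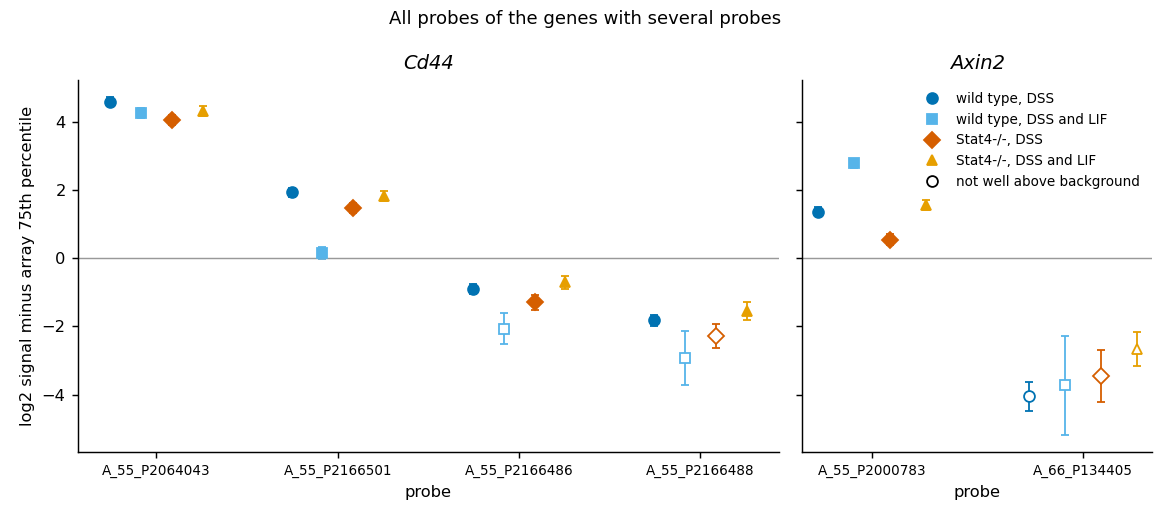
All probes of Cd44 and Axin2 on the 4 arrays, on the scale of log2 processed signal minus the array's 75th percentile, with the scanner software's error of 1 spot and open symbols where not well above background. For Cd44 the wild type LIF array (squares) is 0.34 below the wild type DSS array by the brightest probe and 1.77 below by the next.

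The comparison of LIF with no LIF in wild type asks how the cytokine bears on these transcripts in colitis. By their brightest probes 8 of the 9 genes could be compared. Lgr5, Axin2 and Ascl2, in this order of size, were at least 2-fold higher with LIF and 0 genes were at least 2-fold lower. That is 3 of 8 beside 34.4% of the 8981 genes measured on both arrays, and 0 of 8 lower beside 13.7%, so the share that was higher was near that of all genes. With normexp 8.88% of all genes were higher and 17.2% lower. The median log2 difference of the 8 genes was 0.89 and that of all genes 0.57, or −0.05 and 0.06 with normexp. The genes split: Lgr5, Axin2, Ascl2, Smoc2 and Rnf43 lay at 0.82 to 2.96, and Sox9, Cd44 and Ephb2 lay between −0.45 and −0.28. The processed signal before scaling rose with LIF for Lgr5 (66.39 to 100.1) and fell for the other genes compared. With normexp the signs of Smoc2 and Rnf43 turned, to −0.05 each, Axin2 and Ascl2 came to 0.42 and 0.20, and Lgr5 alone was at least 2-fold higher (1.47), while Sox9 and Cd44 were at least 2-fold lower (−1.39 and −1.47). Epithelial markers were mixed in the same comparison. Of 15 measured, 3 were at least 2-fold higher, among them Krt20, a keratin of mature cells (4.48-fold), and the goblet cell peptide Tff3 (3.19 on the log2 scale), and 3 were lower, the adhesion protein Epcam (6.23-fold) and the keratins Krt19 (3.17-fold) and Krt8 (2.94-fold). Their median was 0.44, and proliferation genes had one of 0.84 with 3 of 9 at least 2-fold higher. The part of either list in the values of Lgr5, Axin2 and Ascl2 was not tested.

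LIF in the mice labelled Stat4-/- could be compared in 8 genes, and all 8 were above 0, from 0.21 for Ascl2 to 1.01 for Axin2, although with normexp 4 of them turned below it (Ascl2, Smoc2, Sox9 and Cd44, at −0.67 to −0.21). Axin2 was the 1 gene at least 2-fold higher, beside 3.22% of 9779 genes, and 0 were lower, beside 3.07% (0.0614% and 8.9% of all genes with normexp). With normexp Axin2 came to 0.28 and 0 of the 8 were at least 2-fold higher. Lgr5, the ninth gene, was higher by its bound. The median of the 8 was 0.62 and that of all genes −0.01, or −0.08 and −0.13 with normexp. In 5 of the 8 genes, namely Axin2, Rnf43, Sox9, Myc and Ephb2, the difference exceeded its error. Beside these values, epithelial markers had a median of 0.11 with Epcam 2.03-fold higher, and proliferation genes had one of 0.35 with Mki67 2.05-fold higher. Stromal markers had a median of −0.74, with 8 of 8 below 0, and B cell markers one of −0.72, with 5 of 5 below 0. Medians of T cell, macrophage and neutrophil markers were −0.01, −0.15 and −0.24. The part of these lists in the result was not tested.

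The genotypes under DSS were read in the same scan. Among 8 that were measured, 0 reached 2-fold upward in Stat4-/-, beside 13.2% of 10527 genes, and 0 lower, beside 6.94% (3.19% and 7.84% of all genes with normexp), while Lgr5 was lower by its bound of 2.36-fold. Differences ran from −0.82 for Axin2 to 0.47 for Smoc2, and those of Axin2, Cd44 and Smoc2 exceeded their errors. With normexp Cd44 came to −1.11, and the signs of Sox9 (0.17) and Myc (−0.33) turned, to −0.41 and 0.21. The median was −0.21 and that of all genes 0.07. Epithelial markers lay on the same side, with a median of −0.40 and 4 of 16 at least 2-fold lower, among them Krt20 (2.64-fold) and Fabp2, a fatty acid carrier of enterocytes (2.47-fold), against 1 higher. Other cell type markers were further apart: 6 of 7 neutrophil and 5 of 8 stromal markers were at least 2-fold higher in Stat4-/-, with medians of 2.80 and 2.03, and proliferation genes had a median of −0.49. The part of these lists in the result was not tested.

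The genotypes with LIF are compared through the array that stood apart, that of wild type, and were read in different scans, so genotype and scan cannot be told apart here. Lgr5 (5.98-fold), Ascl2 (2.38-fold) and Axin2 (2.33-fold) were at least 2-fold lower in Stat4-/-, which is 3 of 8 genes beside 31.3% of 8346. Sox9 was 2.16-fold higher, 1 of 8 beside 14.2%. Both shares are near those of all genes. With normexp the 3 genes came to −0.98, −0.86 and −0.89, each short of 2-fold, and Sox9 to 0.72. The values for Smoc2 (−0.13) and Cd44 (0.07) are near 0. The sign of Smoc2 turned with some scalings, and that of Cd44 with normexp (−0.30). Of 15 epithelial markers 4 were at least 2-fold lower, such as Krt20 (8.20-fold), and 3 higher, such as Epcam (6.64-fold). Neutrophil markers past 2-fold upward were 5 of 5 (median 2.67), and proliferation genes had a median of −0.82 with 4 of 9 lower. The part of these lists in the result was not tested.

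This comparison and that of LIF in wild type share the wild type LIF array, and the high values of Lgr5, Axin2 and Ascl2 on that 1 array enter both. No count without it can be given for either. The 2 comparisons that do not use it, LIF in Stat4-/- and the genotypes under DSS, share the array labelled Stat4-/- DSS, on which Lgr5 and Axin2 were lowest.

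**Figure D3:**
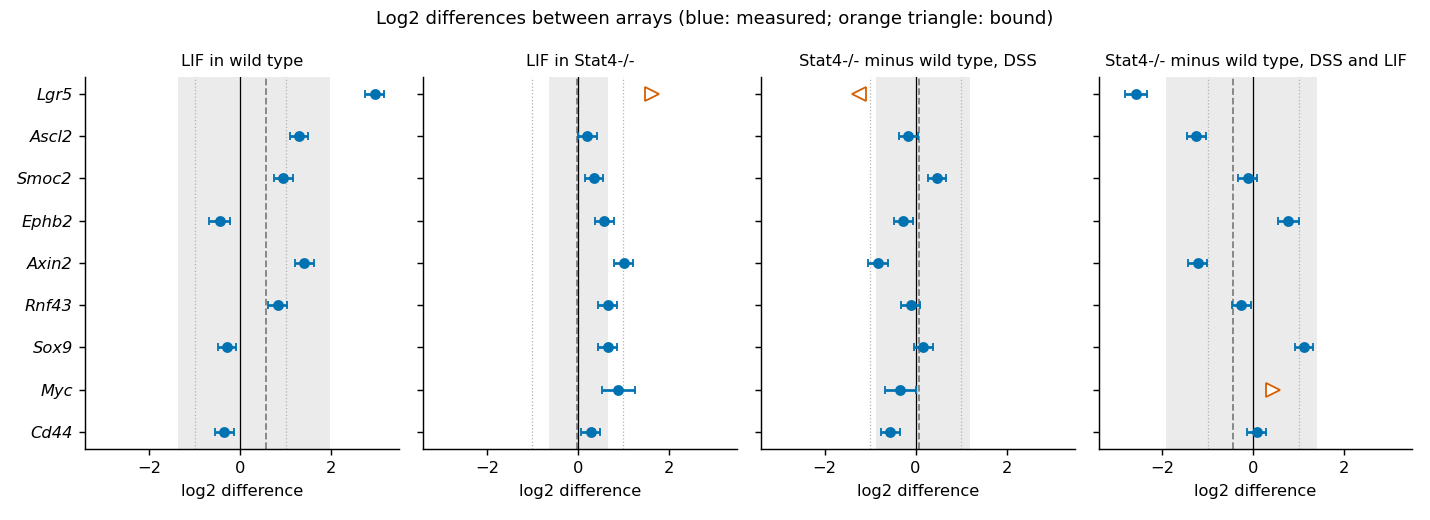
Log2 differences between arrays for each gene in the 4 comparisons. Blue points are measured with the combined error of 2 spots, orange triangles are bounds that point away from 0, the grey band holds 80% of all measured genes, the dashed line is their median and dotted lines mark 2-fold. Lgr5 lies outside the band for LIF in wild type (2.96) and for the genotypes under DSS and LIF (−2.58), and with normexp these become 1.47 and −0.98.

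Further genes of the pathway, listed by their role, were read from the same arrays. The signal level used for scaling was 122.9 on the wild type DSS array and 23.78 on the wild type LIF array. A fold rise with LIF in wild type that is smaller than the ratio of these levels was a fall before scaling. This holds for the epithelial and proliferation genes above too. None of these lists was recomputed with normexp. Of 21 Wnt ligand and secretion genes, 13 were well above background on the wild type DSS array and 6 to 9 on the other arrays. That is 61.9% and 28.6% to 42.9%, beside 61.7% and 37.6% to 45.7% of all probes on the same arrays. The list counts genes by their brightest probe and the second share counts every probe, so they are not like measures. Wnt3, a canonical ligand of the gut epithelium, was at 1.85 on the wild type DSS array, 0.22 and 0.11 on the arrays labelled Stat4-/-, and not well above background on the wild type LIF array. In the LIF comparison of wild type arrays 3 of the 6 genes of this list that were measured were past 2-fold upward, Wnt9b (15.9-fold), Wnt7b (6.08-fold) and Wls, which carries ligands to the surface (3.64-fold). Beside this stand the 34.4% of all genes that were higher and the 13.7% that were lower in that comparison, which hold for the lists that follow too. A further 3 genes of the list were lower by a bound, Wnt3 by at least 10.2-fold, Wnt5b by 1.71-fold and Wnt16 by 1.01-fold. Over all genes, 1464 were lower by a bound in this comparison and 253 higher. Porcn, the acyltransferase that lipidates Wnt proteins, was 202-fold lower there, with log2 levels above 10 on each other array and 3.04 on that one. This value rests on its brightest probe and on the wild type LIF array, which stood apart.

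Among 19 receptor and R-spondin genes 5 to 13 were well above background per array. The 13 were on the wild type DSS array (61.7% of all probes) and the 5 on the wild type LIF array (37.6%), where the shares again count probes and not genes. Lrp6, a Wnt co-receptor, was 2.72-fold lower with LIF in wild type, 1 of 5 measured, and 0 were higher. Lgr4, a relative of Lgr5, was not well above background on the wild type LIF array, unlike Lgr5, and Znrf3, the partner of Rnf43, was not on any array. Of the R-spondins, Rspo4 on the wild type DSS array and Rspo3 on the array labelled Stat4-/- LIF were above the mark.

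Inhibitors and nuclear factors did not share a direction with LIF in wild type. Notum, a Wnt deacylase and itself a target, was 2.96-fold higher, while the corepressors Tle4 and Tle2 were 3.54-fold and 3.20-fold lower, together 1 higher and 2 lower of 6 measured. Of 10 measured genes acting inside the cell, 4 were higher, near the 34.4% of all genes, among them Tcf7l1 (4.00-fold) and the kinase Csnk1a1 (2.55-fold), and the main crypt TCF gene Tcf7l2 was 2.75-fold lower. Ctnnb1, the beta-catenin gene, stayed between 4.20 and 4.72 on the 4 arrays. In Stat4-/- 0 of 6 inhibitors and 0 of 11 such intracellular genes reached 2-fold with LIF among measured genes. Of all measured genes 3.22% were higher and 3.07% lower there. By bounds, the inhibitor Dkk3 was at least 2.05-fold lower and Bcl9l, a beta-catenin cofactor, at least 2.19-fold lower. Over all genes, 1006 were higher by a bound of any size in that comparison and 810 lower.

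Among further Wnt targets 2 of 11 measured genes were at least 2-fold higher with LIF in wild type, Tiam1 (3.72-fold) and Notum, and 2 were lower, Jun (3.53-fold) and the stem cell receptor gene Tnfrsf19 (2.99-fold). Their median was 0.06, against 0.89 for the genes described here and 0.57 for all genes. With normexp the last 2 medians were −0.05 and 0.06. Further stem cell genes had a median of 0.25 after scaling. Of 16 measured, 7 were higher, led by Scn2b (5.22-fold), the ion transporter Slc12a2 (4.85-fold) and Prom1 (4.40-fold). Slc12a2 and Prom1 were lower before scaling. In this list 5 genes were lower, among them Msi1 (2.84-fold) and Rgmb (2.15-fold), beside 34.4% of all genes higher and 13.7% lower. Tert, the telomerase gene, was not well above background on the wild type LIF array and at least 39.8-fold lower by its bound. With LIF in Stat4-/- the 2 lists had medians of 0.01 and 0.32, with 0 of 11 and 0 of 16 genes higher and 0 and 1 lower, while Ccnd1, the cyclin D1 gene and a Wnt target, was at least 3.58-fold higher by a bound. Under DSS the genotypes differed by medians of 0.19 and −0.32 in these lists, and Clu, a gene of regenerating crypts, was 4.22-fold higher in Stat4-/- and Ly6a, another, 2.42-fold lower.

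**Figure D4:**
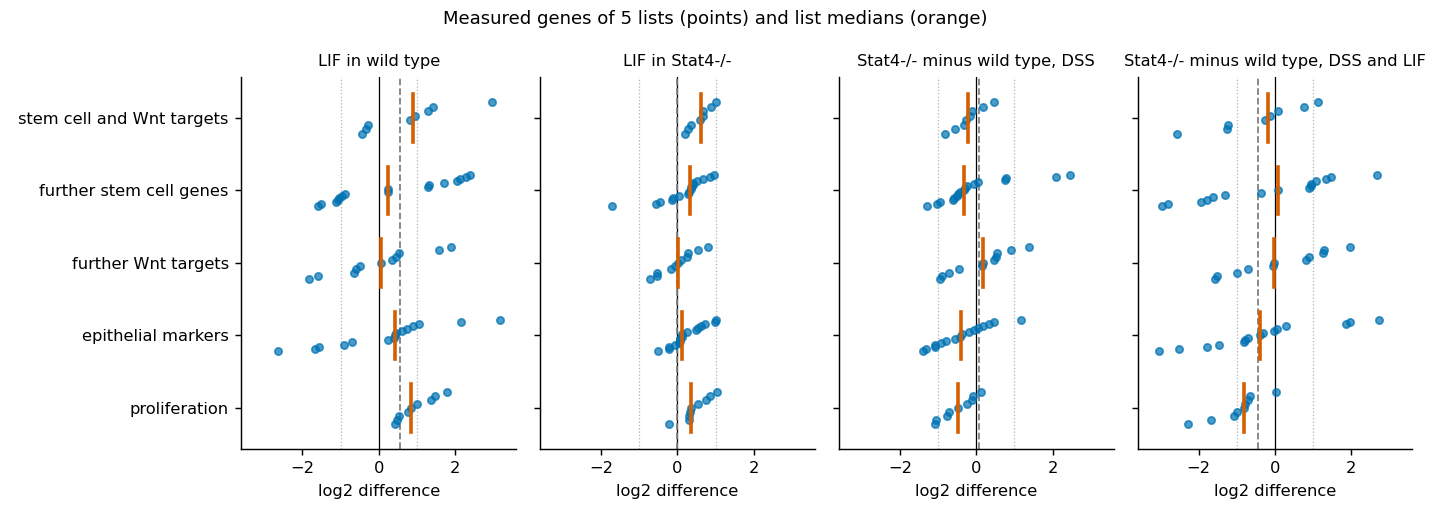
Measured genes of 5 lists (points, ordered within a list) and list medians (orange bars) in the 4 comparisons, as log2 differences. The dashed line is the median of all measured genes and dotted lines mark 2-fold. With LIF in wild type the stem cell and Wnt targets have a median of 0.89 (−0.05 with normexp) and further Wnt targets one of 0.06. With LIF in Stat4-/- the first are all above 0, of which 4 turn below it with normexp.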

How the data were processed

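RNA of 4 samples was hybridized to 1-colour (Cy3) Agilent arrays. The spot intensity values were made by the authors with Agilent Feature Extraction, version 11.0.1.1 by the file headers (per the submitters' processing notes, 9.1), and include background subtraction and an error of each spot. The authors also deposited a table of log2 values, whose normalization, centring and floor are not given in the sources used here. Its column medians were 3.31, 2.54, 3.31 and 3.31 (arrays of wild type DSS, wild type LIF, Stat4-/- DSS and Stat4-/- LIF), and its correlation with the log2 scanner values was 0.971 to 0.992 across probes, so higher is brighter.

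Here log2 processed signals were set against the 75th percentile of 43020 non-control spots per array, outlier spots were left out and spots of a probe averaged. A probe counted as well above background if 50% or more of its usable spots were so marked, and no spot was saturated. Each gene was compared by its brightest probe where that was so on both arrays, and by a bound where it was so on 1. Names came from accessions through a RefSeq table (GRCm38.p6), used for names alone. Genes were counted at a fold of 2. All 10 genes are named, and of other lists up to 3 genes each way that were past 2-fold also with quantile scaling, with further members of those lists chosen after their values were seen. The genes and lists were chosen with earlier results of these data known. The scripts were tested on simulated data. The simulated arrays were rescaled copies of the wild type DSS array with known changes, so loss of detection on a dim array was not simulated. Python 3.11.15, pandas 2.3.3 and limma 3.58.1 (normexp, on the median spot signal) were used.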

Additional observations from a re-analysis of the deposited data

Results flagged for a closer look

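The LIF difference had opposite signs in the 2 genotypes for 3 genes measured on all 4 arrays. The LIF difference in Stat4-/- minus that in wild type was 1.04 for Ephb2, 0.94 for Sox9 and 0.63 for Cd44 on the log2 scale. For Ephb2 and Cd44 the genotype difference had opposite signs with and without LIF as well, which is the same value seen the other way, and so it had for Smoc2 (−0.60). Some of these signs belong to differences within 2 errors. For LIF these were Sox9 in wild type (−0.28 ± 0.20) and Cd44 in both genotypes (−0.34 ± 0.20 and 0.28 ± 0.20). Between genotypes they were Ephb2 under DSS (−0.27 ± 0.21), and Cd44 (0.07 ± 0.20) and Smoc2 (−0.13 ± 0.21) under DSS and LIF. With normexp the opposite signs were lost for Sox9 (−1.39 in wild type and −0.27 in Stat4-/- with LIF) and for Cd44 (−1.47 and −0.67, and between genotypes −1.11 without LIF and −0.30 with it). For Cd44 the next probe had LIF differences of −1.77 and 0.34. For Smoc2 they were lost with quantile scaling, the percentile over detected probes and the authors' deposited table, where the genotype difference with LIF was 0.03, 0.07 and 0.01 against −0.13. With 1 array a group these differences were not tested, and each includes the wild type LIF array.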

How the results depend on the processing

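The counts of genes at least 2-fold higher or lower depend most on the background correction. With normexp (offset 50) they were 1 higher and 2 lower for LIF in wild type, 0 higher for LIF in Stat4-/-, 1 lower for the genotypes under DSS, and none either way (0 higher, 0 lower) for the genotypes with LIF. The offset of 50 exceeds the 75th percentile of the signal (23.8 to 45.3) on 3 of the 4 arrays, and the cause of these differences was not tested. With no background filter the counts were 2 higher for LIF in Stat4-/-, 1 lower for the genotypes under DSS, and 2 higher under DSS and LIF. At a fold of 1.5 there were 5 higher for LIF in wild type, 5 higher for LIF in Stat4-/-, 1 lower under DSS and 2 higher under DSS and LIF. With the mean over probes 1 gene, Cd44, was lower for LIF in wild type. Quantile scaling, a percentile over detected probes, outlier spots kept, genes measured on all 4 arrays and the authors' deposited table left each count within 1.5 times. Over 252 values of single genes under an alternative, 217 moved by less than the error of the difference, and none of at least 2-fold changed sign. Several alternatives leave a gene read from 1 spot of 1 probe unchanged by construction, so this count does not measure robustness. Most of the 35 values that moved did so with normexp. Scaling by probes detected on every array moved the median of all genes for LIF in wild type from 0.57 to 0.36. No paired analysis was possible because each group has 1 array. The brightness of the wild type LIF array limits what can be said of dim genes such as Myc.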
